A study of Mus musculus with 14 samples.

Results

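Of the 63244 transcripts quantified in carotid arteries of wild-type and Rbp7 knockout mice, 29 were higher with rosiglitazone in every wild-type (WT) replicate pair and not higher, on average, in the knockout (KO). The 29 were chosen by their measured values. Each had a mean of at least 5 TPM (each transcript's share of the library's RNA molecules, corrected for transcript length) in the WT rosiglitazone libraries. Each had a rosiglitazone minus DMSO difference in log2(TPM + 1) of at least 0.5 in all 3 WT pairs, and a mean difference over the 4 KO pairs of at most 0. The WT and KO responses of these transcripts therefore restate the choice, and they are described below without a test. Most of the 29 were low-abundance transcripts, and most had KO pairs in both directions. One of them, uc033jnf.1, was listed at 0 TPM in every WT DMSO library and every KO rosiglitazone library, and lay between 5.52 and 28.0 TPM in all libraries of the other 2 groups.

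Rosiglitazone is a ligand of PPARγ, a nuclear receptor that pairs with the retinoid X receptor and switches on genes of fatty acid uptake, storage and adipokine signalling. In arteries PPARγ acts in both endothelium and smooth muscle, where its ligands are known for lowering vascular tone. Rbp7 encodes a small cytosolic retinol-binding protein that is made in endothelium and is itself a PPARγ target, so the design asks whether a response to the drug needs Rbp7.

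All arteries came from male C57BL/6J mice, either WT or Rbp7-deficient, and each library was labelled as exposed to 10 µM rosiglitazone or to its solvent DMSO for 24 h. Each WT treatment group held 3 libraries and each KO treatment group 4. One text of the record has arteries being exposed after removal and another has mice being treated, so the exposed object is not settled here. The labels do not say how Rbp7 was deleted, in which cells, or whether arteries were pooled. The KO libraries carry sample numbers 2 to 5 (replicates 1 and 2) and 18 to 21 (replicates 3 and 4), and the labels give no meaning for these ranges. The WT libraries carry numbers 6 to 11, so genotype cannot be told apart from sample number. Nothing ties a DMSO library to the rosiglitazone library of the same replicate number, and the p-values rest on library-to-library spread, which may be technical.

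TPM values keep no sequencing depth, so the number of reads behind a value is unknown and no counting interval is given. Each library held 23996 to 27686 transcripts of at least 1 TPM. The 2 most abundant transcripts took 41.8 to 48.8% of the TPM in 12 libraries, but 33.2 and 37.5% in the KO libraries of replicate 4, which compresses or expands every other transcript's share. None of the 63244 identifiers matched a gene in the reference tables used here. The transcripts are therefore named by identifier, their genes and roles are not given, and neither Rbp7 itself nor markers of endothelium, muscle, fat or blood cells were analysed here. In whole arteries, fewer cells of a type and less RNA per cell cannot be told apart.

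In the deposited values fewer transcripts were raised (68) than lowered (131) in all WT pairs, an order that turned with median-of-ratios scaling (97 and 84). Of 12156 transcripts with a mean of at least 5 TPM in WT rosiglitazone, 68 (0.559%) were higher by at least 0.5 in all WT pairs, and 29 of these 68 (42.6%) had a KO mean of at most 0. The other 39 had a KO mean above 0. The share with a KO mean of at most 0 among all 12156 was 64.2%, and the difference between these shares was not tested.

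The same rule with the sign turned in every pair, with the level read in WT DMSO, gave 25 transcripts out of 131 lowered in all WT pairs (19.1%), among 12632 at that level. A KO mean of at least 0 was held by 34.4% of those 12632. The rule and its mirror image thus gave 29 and 25 transcripts. With median-of-ratios scaling, the rule gave 37 transcripts and the mirrored rule 22, and a KO mean of at most 0 was held by 38.1% of the raised transcripts and 37.3% of all. Scaling moved the median KO difference at this level by 0.11, from -0.05 to 0.06, and 27 of the 29 stayed. The 2 lost ones, uc008cuf.2 and uc009mun.1, had scaled KO means of 0.03 and 0.0066.

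Both counts also moved with the libraries in which the level was read. With the level read over all 6 WT libraries, the rule gave 18 transcripts and the mirrored rule 16. With the level of the mirrored rule read in WT rosiglitazone, it gave 9.

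**Figure D1:**
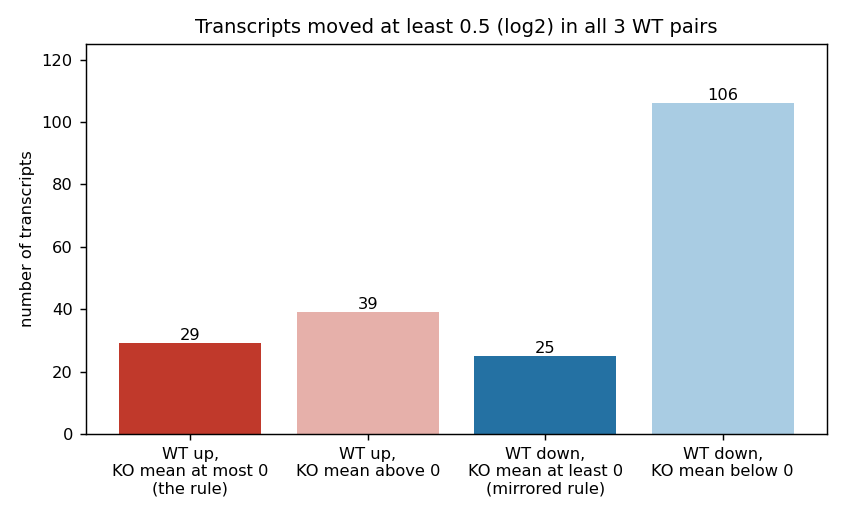
Number of transcripts (y axis) that differed by at least 0.5 on the log2(TPM + 1) scale in the same direction in all 3 WT pairs, split by the mean KO difference (x axis). Of the raised transcripts 29 had a KO mean of at most 0 and 39 a mean above 0; of the lowered ones 25 had a KO mean of at least 0 and 106 a mean below 0, without rescaling of the deposited values.

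The 29 transcripts sat near the lower end of abundance. Of them, 19 (65.5%) had a WT rosiglitazone mean between 5 and 10 TPM, where 37.0% of all transcripts above the minimum lay, and none exceeded 50 TPM, against 12.3% of all. Their median of group means was 2.67 TPM in WT DMSO, 8.25 in WT rosiglitazone, 5.12 in KO DMSO and 3.93 in KO rosiglitazone. Of the 29, 9 were listed at 0 in at least 1 library (31.0%), against 2.00% of all. The share was 20.5% in the other 39 raised transcripts and 32.0% in the 25 of the mirrored rule. Such zeros may be failed assignments among similar transcripts, which was not tested, so they are given as listed values.

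In the WT pairs the median difference of the 29 was 1.64, 1.29 and 1.06. For the 12156 transcripts the median mean difference was -0.04. The spread among pairs was wide for the 29, with a median SD of 0.58 over WT pairs and 1.00 over KO pairs, against 0.22 and 0.25 for all transcripts. The other 39 raised transcripts had median SDs of 0.36 and 0.74, and the 25 of the mirrored rule 0.36 and 0.95. In 23 of the 29, the WT libraries of the 2 treatments did not overlap, against 3.01% of all, which the choice itself nearly fixes.

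**Figure D2:**
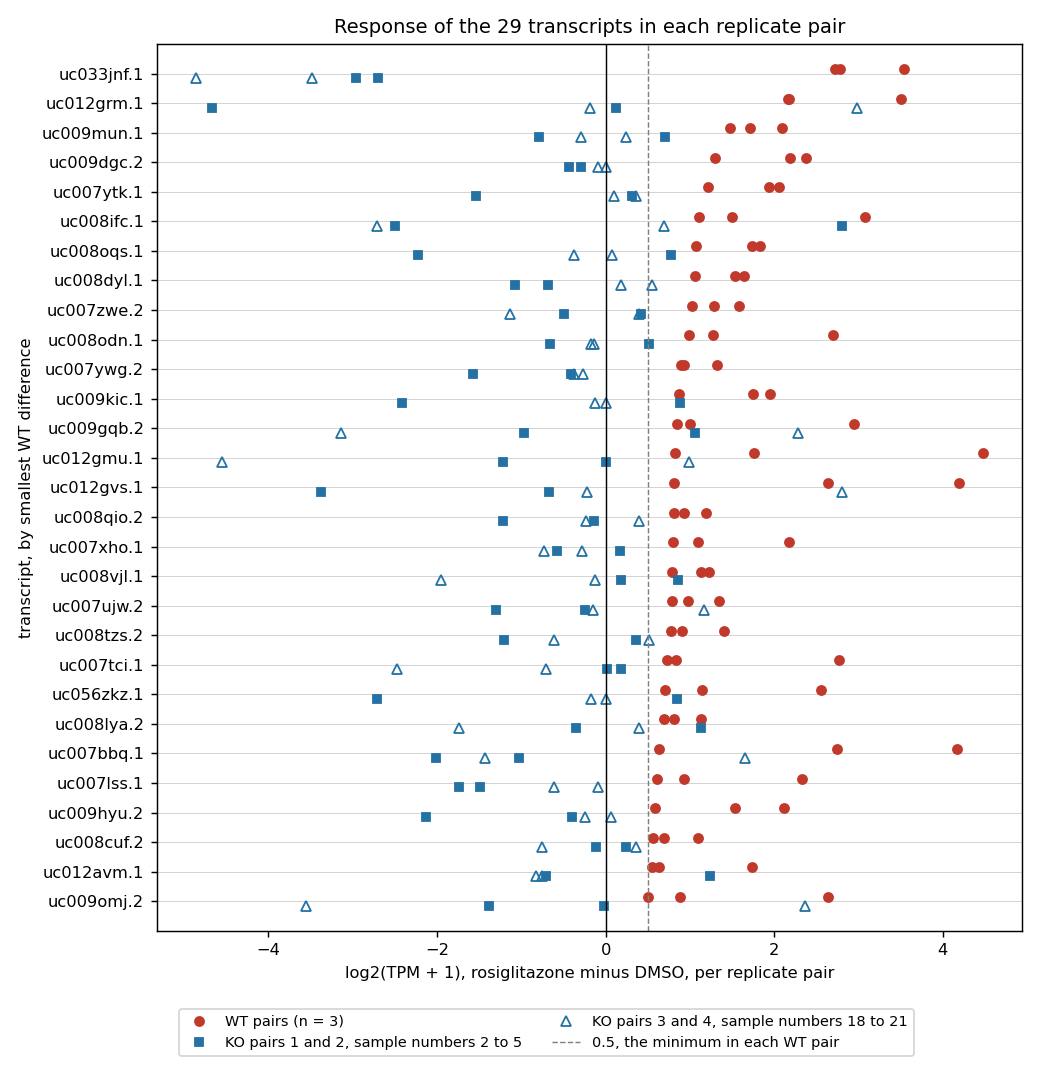
Rosiglitazone minus DMSO difference in log2(TPM + 1) (x axis) for each of the 29 transcripts (rows), in each WT pair (red circles) and KO pair (blue squares for sample numbers 2 to 5, open triangles for 18 to 21). All red circles lie right of the dashed line at 0.5 because the rule asked for it, while the blue points of most transcripts lie on both sides of 0.

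The transcript with the largest response in its weakest WT pair was uc033jnf.1. It was listed at 0 in all 3 WT DMSO libraries and read 5.60, 10.6 and 5.88 TPM in WT rosiglitazone. In KO DMSO it read 6.81, 5.52, 10.2 and 28.0 TPM, and in KO rosiglitazone it was listed at 0 in all 4 libraries. The 2 treatments did not overlap in either genotype, and they were in opposite order. Its difference was 3.01 ± 0.46 (SD, n = 3 pairs) in WT and -3.50 ± 0.96 (SD, n = 4 pairs) in KO on the log2(TPM + 1) scale. It was 1 of 29 in which every KO DMSO library lay above every KO rosiglitazone library, against 1.17% of all. In WT rosiglitazone it held only 0.0467% of the TPM summed with its neighbours within 3 identifiers of the same prefix. That sum averaged 14726 TPM in WT DMSO, 15779 in WT rosiglitazone, 16828 in KO DMSO and 16658 in KO rosiglitazone. Its mean drug difference was -0.12 in WT and 0.07 in KO. Assignment of reads among similar transcripts was not tested.

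The next, uc012grm.1, was also listed at 0 in all WT DMSO libraries and read 3.53, 10.3 and 3.47 TPM in WT rosiglitazone. Its KO values did not separate by treatment: 24.5, 3.44, 0 and 4.55 TPM with DMSO, and 0, 3.84, 6.88 and 3.86 TPM with rosiglitazone. It was thus listed above 0 in WT only with the drug, and in KO both above 0 and at 0 with either treatment.

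The most abundant of the 29 in WT rosiglitazone, uc007bbq.1, read 2.57, 18.7 and 2.24 TPM in WT DMSO and 63.4, 29.7 and 20.6 TPM in WT rosiglitazone. Its KO values were 40.9, 43.7, 15.1 and 9.63 TPM with DMSO and 19.5, 10.0, 4.98 and 32.4 TPM with rosiglitazone. Lower KO values with the drug held in 3 pairs and not in pair 4, and the WT response ran from 0.64 to 4.17 between pairs. The lowest value with the drug in WT, 20.6 TPM, was close to the highest without it, 18.7 TPM.

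The transcript uc007lss.1 read 7.18, 4.95 and 8.25 TPM in WT DMSO and 14.5, 28.9 and 13.1 TPM in WT rosiglitazone. In KO it read 44.3, 10.0, 20.9 and 37.7 TPM with DMSO and 15.1, 2.29, 19.6 and 24.2 TPM with rosiglitazone. It was lower with the drug in each KO pair, yet the 2 KO groups overlapped, and every KO DMSO library was above every WT DMSO library. The drug difference was 1.29 ± 0.92 (SD, n = 3 pairs) in WT and -0.99 ± 0.77 (SD, n = 4 pairs) in KO.

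For uc007tci.1 the WT values were 9.73, 1.96 and 9.72 TPM with DMSO and 16.8, 19.2 and 18.2 TPM with rosiglitazone. Its KO values were 12.8, 9.75, 13.2 and 19.1 TPM with DMSO and 14.7, 9.87, 1.54 and 11.4 TPM with rosiglitazone. The drug libraries of WT were tightly grouped at 18.0 ± 1.20 TPM (SD, n = 3), and the negative KO mean of -0.74 came from pairs 3 and 4.

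The abundant uc012gmu.1 was listed at 0 in 1 WT DMSO library, with 4.27 and 4.65 TPM in the others, and read 21.3, 16.8 and 8.95 TPM in WT rosiglitazone. In KO it read 0, 12.7, 8.02 and 22.5 TPM with DMSO and 0, 4.87, 16.9 and 0 TPM with rosiglitazone. Its KO libraries mixed zeros with levels as high as those of WT rosiglitazone, and its mean KO difference of -1.20 ± 2.42 (SD, n = 4 pairs) was smaller than its spread. The transcript uc012gvs.1 read 0.0258, 5.49 and 1.51 TPM in WT DMSO and 17.7, 10.4 and 14.6 TPM in WT rosiglitazone. In KO it ranged from near 0 to 9.38 TPM with DMSO or rosiglitazone, with no separation of the 2.

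A less abundant transcript with a narrower spread, uc007ywg.2, read 2.65, 1.27 and 2.40 TPM in WT DMSO and 8.11, 3.22 and 5.46 TPM in WT rosiglitazone. In KO it read 6.24, 5.49, 4.04 and 3.58 TPM with DMSO and 1.44, 3.90, 3.20 and 2.52 TPM with rosiglitazone. Only the second KO rosiglitazone library, 3.90 TPM, exceeded the lowest KO DMSO library, 3.58 TPM. Its differences were 1.05 ± 0.24 (SD, n = 3 pairs) in WT and -0.65 ± 0.61 (SD, n = 4 pairs) in KO.

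At the other extreme, uc008ifc.1 switched between near 0 and several TPM within 3 of the 4 groups. It read 2.59, 0.0635 and 0.0474 TPM in WT DMSO and 6.74, 2.00 and 7.83 TPM in WT rosiglitazone. In KO it read 0.0566, 5.00, 3.75 and 5.79 TPM with DMSO and 6.36, 0.0647, 6.65 and 0.0357 TPM with rosiglitazone. High and low libraries occurred in both KO groups, and its KO difference was -0.43 ± 2.66 (SD, n = 4 pairs).

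**Figure D3:**
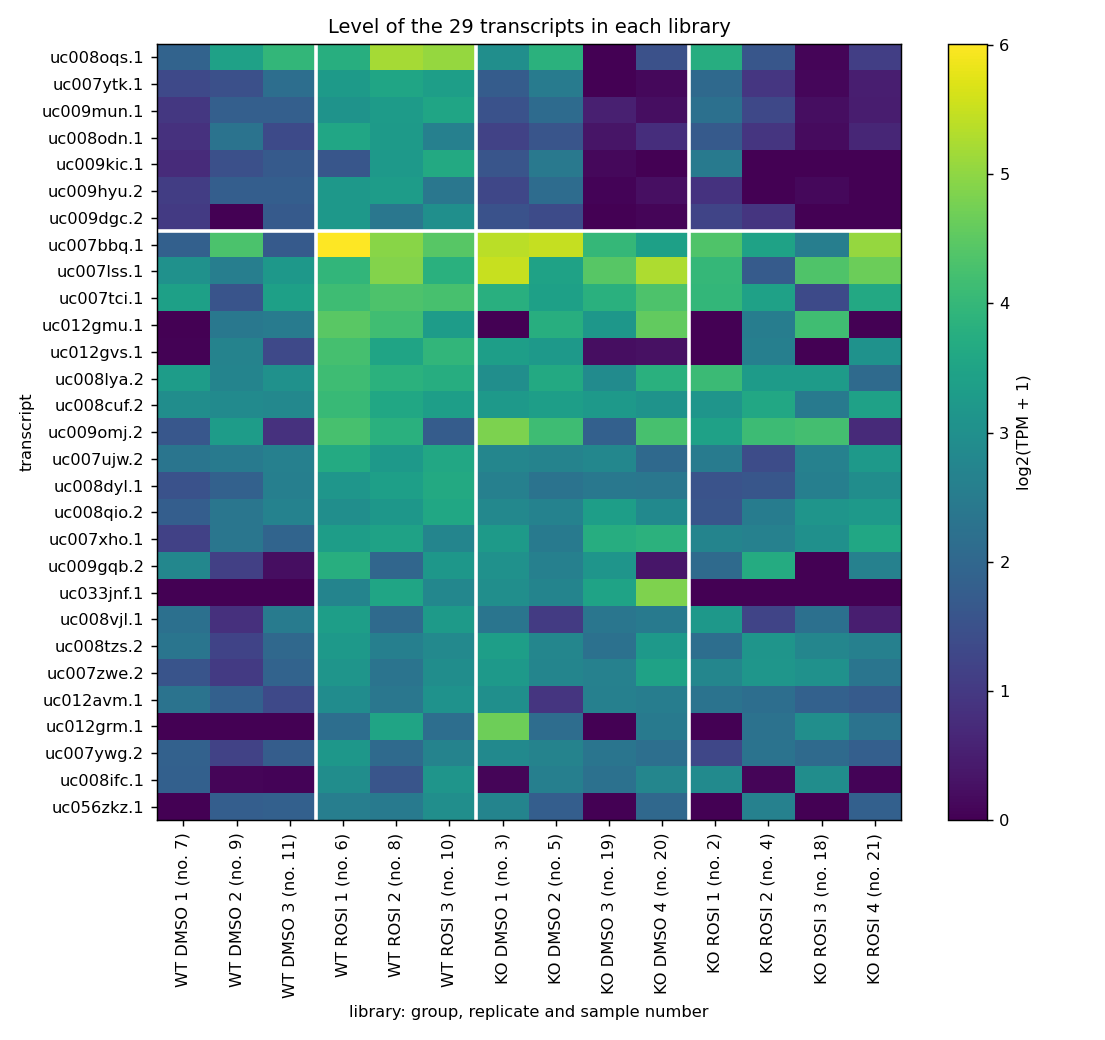
Abundance as log2(TPM + 1) (colour) of the 29 transcripts (rows) in each of the 14 libraries (columns, grouped by genotype and treatment). The row of uc033jnf.1 is at 0 in all WT DMSO and KO rosiglitazone libraries, and the KO columns of sample numbers 18 to 21 are dark in the 7 rows above the white line, whose highest value there is 1.79 TPM.

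The KO pairs agreed on few of the 29. Their medians were -0.49, -0.44, -0.13 and -0.25 in pairs 1 to 4, and the number of the 29 above 0 was 9, 10, 12 and 9. For all transcripts at the minimum level the medians were -0.15, 0.02, -0.04 and -0.05, and the share above 0 in each pair was not counted. In 28 of the 29 at least 1 KO pair was at -0.5 or lower, against 28.9% of all transcripts. In 18 at least 1 pair was at 0.5 or higher, against 18.7%, and all 18 also had a pair at -0.5 or lower, against 8.81%. Every KO pair was below 0 in 3 of the 29 (uc007lss.1, uc007ywg.2 and uc033jnf.1), against 15.2%. A mean of at most 0 in KO therefore stood, for most of the 29, for pairs of opposite sign. The KO condition was set by a mean, so these counts are partly fixed by the rule.

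The 29 fell into 2 sets by their level in the KO libraries of sample numbers 18 to 21, a split made after the values were seen and not tested. In 7 transcripts (uc007ytk.1, uc008odn.1, uc008oqs.1, uc009dgc.2, uc009hyu.2, uc009kic.1 and uc009mun.1) all 4 of those libraries lay below every KO library of numbers 2 to 5, or below every WT library, or both. This was met by 24.1% of the 29 and by 420 of the 12156 transcripts (3.46%). No value of the 7 in those 4 libraries exceeded 1.79 TPM. Counted apart, 5 of the 29 had every KO library of 2 to 5 above every one of 18 to 21 (2.91% of all), and 6 had every WT library above those of 18 to 21 (1.72% of all). The reverse order within KO, 18 to 21 above 2 to 5, held in 1 of the 29, uc008qio.2, against 6.80% of all.

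Among the 7, uc007ytk.1 read 1.51, 1.77 and 3.49 TPM in WT DMSO and 8.62, 10.6 and 9.37 TPM in WT rosiglitazone. Its KO libraries of numbers 2 to 5 read 2.37 and 4.66 TPM with DMSO and 3.17 and 0.943 TPM with rosiglitazone. Those of numbers 18 to 21 read 0 and 0.0976 TPM with DMSO and 0.0736 and 0.413 TPM with rosiglitazone. The KO values thus parted by sample number, with no overlap, and not by treatment.

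The highest of the 7, uc008oqs.1, read 2.79, 9.93 and 14.8 TPM in WT DMSO and 12.5, 35.5 and 32.1 TPM in WT rosiglitazone. In KO it read 6.85, 13.3, 0 and 1.79 TPM with DMSO and 12.5, 2.06, 0.0572 and 1.16 TPM with rosiglitazone. Its 2 WT groups overlapped, because the first WT rosiglitazone library was below the third WT DMSO library. The transcript uc009mun.1 read 0.976, 2.53 and 2.54 TPM in WT DMSO and 7.44, 8.85 and 10.6 TPM in WT rosiglitazone, and its KO values of numbers 18 to 21 were 0.438 and 0.173 TPM with DMSO and 0.174 and 0.391 TPM with rosiglitazone.

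A transcript near 0 has little room to fall, though it can rise. The differences of these 7 in the pairs of 18 to 21 ran from -0.37 to 0.36, and the reason was not tested. All 7 were lower with the drug in KO pair 2, and 5 were higher with it in KO pair 1. For all transcripts at the minimum level the median difference was 0.02 in KO pair 2 and -0.15 in KO pair 1. The share of all in each direction was not counted, and the 7 were picked after their values were seen. For uc009mun.1, KO pair 1 went from 1.86 to 3.67 TPM and pair 2 from 3.28 to 1.48 TPM, and the mean over the 4 pairs was -0.03 ± 0.65 (SD, n = 4). For uc009dgc.2 the WT values were 1.03, near 0 and 2.28 TPM with DMSO and 8.26, 4.20 and 7.02 TPM with rosiglitazone, while no KO library exceeded 1.86 TPM.

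The other 22 had a different level pattern. Their median of group means was 2.89 TPM in WT DMSO and 8.44 in WT rosiglitazone, and 7.10 in KO DMSO and 5.27 in KO rosiglitazone. The KO DMSO mean was above the WT DMSO mean in 22 of these 22, and in 1 of the 7. The share of all transcripts in this order was not counted. Choosing transcripts for low values in WT DMSO pushes this order. The limit on the KO mean and the split by KO level also push it, so it is a description. The median of group means over all 12156 transcripts was 13.7 TPM in WT DMSO and 14.6 TPM in KO DMSO. In uc007zwe.2, named after its values were seen, WT DMSO read 1.95, 1.04 and 2.77 TPM, WT rosiglitazone 7.81, 3.98 and 6.66 TPM, and KO DMSO 8.48, 5.71, 5.28 and 10.1 TPM. Its KO rosiglitazone libraries read 5.75, 7.93, 7.26 and 4.05 TPM. The WT DMSO libraries were the low ones, and the other 3 groups overlapped.

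A pair of contrasts asks about levels rather than the drug response. All 29 passed the filter of at least 1 TPM in at least 3 libraries, and p-values were adjusted over all 29304 transcripts tested with limma. The genotype contrast, KO minus WT averaged over treatments, called 0 of the 29 at an adjusted p under 0.05, against 0.058% of all transcripts tested (17). At an unadjusted p under 0.05 it passed 9 of the 29, 2 higher and 7 lower in KO, against 5.09% of all (3.45% higher and 1.64% lower). The 7 lower are the transcripts low in KO numbers 18 to 21. The minimum level was read in WT rosiglitazone libraries, which enter this contrast. The number lower in KO is therefore partly fixed by the choice, and these counts are a description.

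The smallest genotype p belonged to uc009hyu.2, which read 1.14, 2.47 and 2.49 TPM in WT DMSO and 8.24, 9.04 and 4.26 TPM in WT rosiglitazone. In KO it read 1.43, 3.37, 0.0428 and 0.186 TPM with DMSO, and 0.836, near 0, 0.0936 and 0 TPM with rosiglitazone. Its difference was -1.68 (SE 0.32, adjusted p = 0.126 with limma). Without KO DMSO replicate 2 its adjusted p was 0.0233 with limma, and with the replicate number as a block it was 0.641. Over all alternatives its adjusted p ran from 0.0233 to 0.726. The highest came without the KO libraries numbered 18 to 21, where its difference was -1.20 and that of uc008odn.1 was -0.98. For uc008odn.1 the difference over all libraries was -1.41 (SE 0.30, adjusted p = 0.228 with limma, and 0.808 with the replicate block).

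Within the KO, libraries of sample numbers 18 to 21 were compared with those of 2 to 5, over both treatments. The difference is taken between KO libraries only, while its SE and p also rest on the spread within the WT groups. It called 1 of the 29, uc007ytk.1, which was lower in 18 to 21, against 0.324% of all transcripts tested (95), with 0.201% lower. At an unadjusted p under 0.05 it passed 11 of the 29, 4 higher and 7 lower in 18 to 21, where all transcripts gave 12.5%, with 8.81% higher and 3.69% lower. The 7 lower are again the transcripts listed above, which were picked on nearly this difference. The median difference was -0.34 for the 29 and 0.13 for all tested.

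The transcript uc007ytk.1 was lower in numbers 18 to 21 by a log2 difference of -1.63 (SE 0.28, adjusted p = 0.0400 with limma). The call was lost when any 1 of 12 of the 14 libraries was left out, and held only without KO rosiglitazone replicate 2 or WT DMSO replicate 3. It was also lost with the replicate number as a block (adjusted p = 0.167 with limma, at the same difference). Its adjusted p ran from 0.0113 to 0.167 over the alternatives. The next, uc009mun.1, differed by -1.42 (SE 0.27, adjusted p = 0.0575 with limma).

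**Figure D4:**
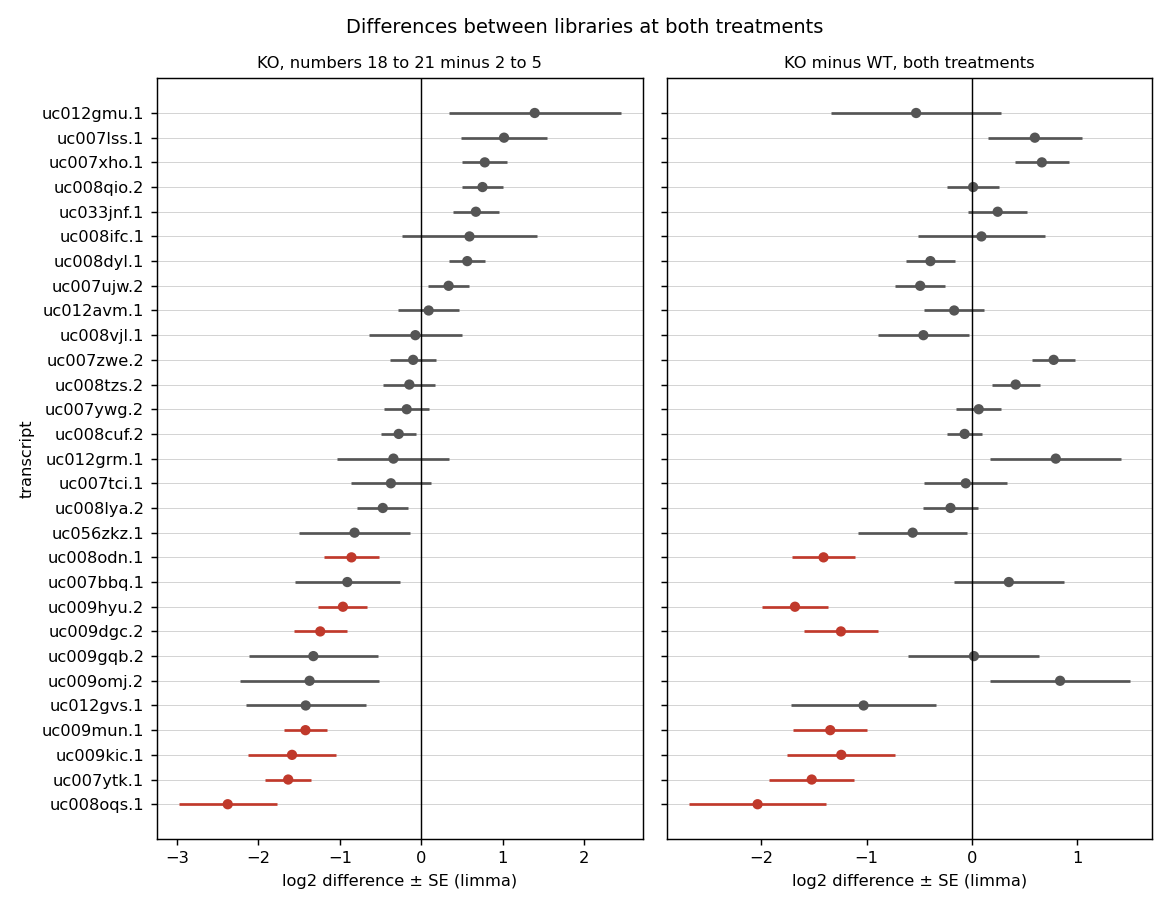
Log2 difference ± SE from limma (x axes) for the 29 transcripts (rows), for KO sample numbers 18 to 21 minus 2 to 5 (left) and for KO minus WT over both treatments (right). The 7 red transcripts, low in KO numbers 18 to 21, lie between -2.38 and -0.86 on the left and between -2.04 and -1.24 on the right; only uc007ytk.1 on the left passed the adjusted threshold.

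Whether the drug difference itself varied between the KO sample-number ranges was tested in the same model. It called 0 of the 29 and 0 of all 29304 transcripts (0%), and at an unadjusted p under 0.05 it passed 5 of the 29, against 2.92% of all (856). It is built from the same 4 KO pair differences whose mean the rule used, so the count is a description. The smallest p among the 29 belonged to uc008dyl.1, which in KO read 5.17, 3.92, 4.34 and 4.24 TPM with DMSO and 1.92, 2.07, 5.04 and 6.69 TPM with rosiglitazone. Its drug difference was lower in numbers 2 to 5 and higher in 18 to 21, by 1.25 between the ranges (SE 0.45, adjusted p = 1.00 with limma). For uc012grm.1 the ranges differed by 3.67 (SE 1.37, adjusted p = 1.00 with limma).

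For reference, limma called 0 of 29304 transcripts higher with rosiglitazone in WT (0%) at an adjusted p under 0.05, and 321 (1.10%) at an unadjusted p under 0.05. In KO it called 2 lower (0.00683%), and uc033jnf.1 was 1 of them. The rule used both contrasts, and nothing is read from these counts.

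Identifiers that follow each other in the transcript set often, but not always, come from 1 gene, and the deposited values do not say which. Each of the 29 was therefore summed in TPM with its neighbours within 3 identifiers of the same prefix. The summed values stayed at least 0.5 higher in all WT pairs for 4 of the 29 (13.8%), a count that was 11 within 1 identifier and 0 within 10. Within 3 identifiers, 7 of the other 39 raised transcripts (17.9%) and 2 of the 25 of the mirrored rule (8.00%) kept the difference. The 4 were uc008oqs.1, uc009hyu.2, uc009kic.1 and uc009mun.1, all among the 7 low in KO numbers 18 to 21, and none of the other 22 kept it at this distance. Each of these 4 held at least 50% of its sum, whereas 20 of the 29 held less than 50% and none of those 20 kept the difference. A transcript with a small share can move its sum only little, so this order partly follows from the share and is a description.

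The most abundant transcript, uc007bbq.1, held 18.8% of its sum. Without the drug the sum averaged 209.8 TPM in WT, and with it 202.1 TPM, so its neighbours together were lower by more than it was higher. In 5 of the 29 a single neighbour was lower by at least 0.5 in all WT pairs. The same held in 7 of the other 39 raised transcripts, so it did not set the 29 apart from those 39. A neighbour was higher in all WT pairs in 3 of the 29 and in 3 of the other 39. In the 25 of the mirrored rule a neighbour was lower in 1 and higher in 2. In the 106 lowered transcripts with a KO mean below 0, a neighbour was lower in 11 and higher in 8. The shares over all transcripts were not counted. Beside uc008qio.2, the neighbour uc008qin.2 went from 6.22 ± 0.65 to 0.846 ± 1.14 TPM with the drug in WT (SD, n = 3 libraries a group), while uc008qio.2 itself went from 3.97 ± 1.43 to 8.62 ± 2.14 TPM. Beside uc012gvs.1, the neighbour uc012gvt.1 was at 12.3 ± 4.75 TPM and then 4.23 ± 4.23 TPM. These pairs were named after their values were seen, and moving of reads between similar transcripts was not tested.

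**Figure D5:**
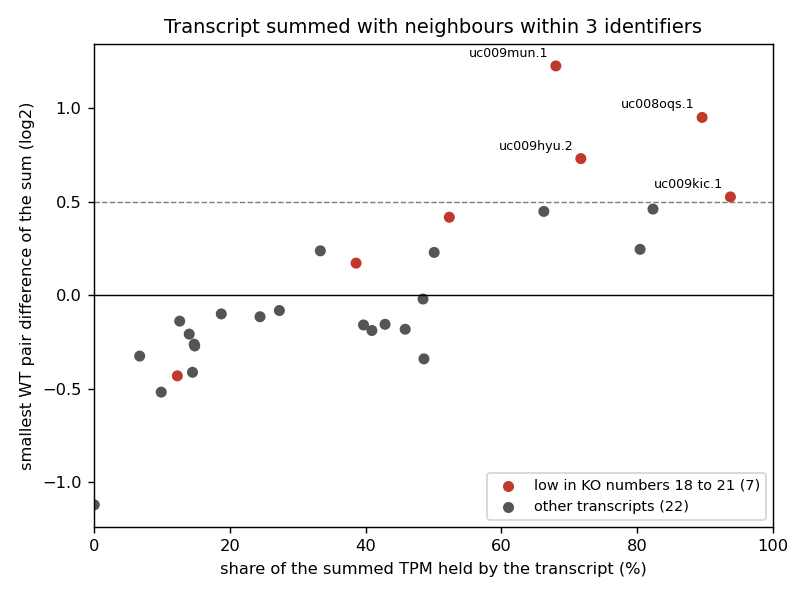
Smallest WT pair difference of the summed TPM of each of the 29 transcripts and its neighbours within 3 identifiers, in log2 (y axis), against the share of that sum held by the transcript in WT rosiglitazone (x axis, percent). The 4 named transcripts lie above the dashed line at 0.5, and all 20 transcripts with a share under 50% lie below it. A small share leaves the sum little room to follow the transcript.

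The thresholds cut through close values. Just inside the limit of 0.5 lay uc009omj.2 (smallest WT difference 0.503) and uc012avm.1 (0.548), and just outside lay uc009cpc.2 (0.498) and uc008zui.2 (0.485). Just inside the KO limit lay uc009mun.1 (mean KO difference -0.03) and uc008cuf.2 (-0.07), and just outside lay uc009ryw.3 (0.0016) and uc008lxv.2 (0.08). At the level limit, uc056zkz.1 (5.46 TPM in WT rosiglitazone) and uc008ifc.1 (5.53 TPM) were inside, and uc008vdi.1 (4.81 TPM) and uc007ihc.2 (4.79 TPM) outside.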

How the data were processed

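RNA of 14 mouse carotid artery libraries was sequenced. The authors deposited 1 table of TPM values for 63244 transcripts, and per the submitters' processing notes FastQC, kallisto and sleuth were used, with builds mm10 and GRCm38. No version or parameter of these steps is stated in the labels. Groups came from the labels. The transcripts and lists were chosen with earlier results of these data known. Pair differences of log2(TPM + 1) were taken between libraries of the same replicate number within a genotype. limma 3.58.1 (R 4.3.3) was fitted with a variance trend to 29304 transcripts that reached 1 TPM in 3 or more libraries, and p-values were adjusted by Benjamini-Hochberg over all of them, with a threshold of 0.05. A model of 4 groups gave the genotype and drug contrasts, and a model of 6 groups with the KO split by sample number gave the others. Tables were handled with Python 3.11.15 and pandas 2.3.3.

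Transcripts were named by a rule: the largest weakest WT differences, the highest WT rosiglitazone levels, the lowest KO means, the widest gaps between genotypes, the smallest p-values of each tested contrast and those nearest a threshold. Others are marked as chosen after their values were seen. The planned lists of pathway genes and cell type markers were not tested, because 0 of 63244 identifiers matched a gene. Alternatives changed the pseudocount, filters, scaling, trend, replicate block, libraries and neighbour distance. The limma step was checked on simulated data of 29304 transcripts with 200 changed 4-fold. It recovered 88.5% of them in the genotype contrast, 84.0% between KO sample-number ranges, and 46.0% for the drug difference between ranges. Of 191, 176 and 97 calls in these contrasts, 14, 8 and 5 were false. The simulated noise was normal and independent between libraries, so correlation between same-numbered libraries was not simulated.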

Additional observations from a re-analysis of the deposited data

Results flagged for a closer look

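Among 40 sets of 4 KO libraries (2 treatments for each of the 20 named transcripts), 2 held a library whose gap to the nearest other, as a share of the whole range, passed Dixon's 95% critical value. Chance gives about 1 in 20. Both were KO rosiglitazone replicate 1: for uc008oqs.1 the share was 0.838, with 12.5 TPM against at most 2.06 TPM in the other 3, and for uc009hyu.2 it was 0.888, with 0.836 TPM against at most 0.0936 TPM.

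In 3 of the 29 transcripts every WT pair was higher and every KO pair lower with rosiglitazone. The WT mean difference exceeded the KO mean difference by 6.52 in uc033jnf.1, by 2.28 in uc007lss.1 and by 1.70 in uc007ywg.2, on the log2(TPM + 1) scale. The transcripts were chosen on these differences, so no test of the difference between genotypes is read from the data that chose them.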

How the results depend on the processing

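The number of transcripts meeting the rule, 29, depended on its settings. It was 18 with a pseudocount of 5, 96 with no minimum level and 2 with a minimum of 20 TPM. Without pairing it was 13, where the lowest WT rosiglitazone library had to exceed the highest WT DMSO library by 0.5 in log2. It was 18 with the level over the 6 WT libraries. With 1 replicate left out it was 23 to 119, where leaving out a WT pair drops a condition. The mirrored count, 25, was 11, 96, 5, 7 and 16 under the same settings with the treatments turned. It was 9 with the level in WT rosiglitazone, and 28 to 93 with 1 replicate left out. With a pseudocount of 0.1 the rule gave 30 transcripts and the mirrored rule 33. Without the KO libraries numbered 18 to 21 they gave 28 and 31, and 22 of the 29 stayed. The number keeping the WT difference after summing, 4, was 11 within 1 identifier and 0 within 10. These neighbour distances, the other level choices and leaving out replicate number 4 were added after seeing the data. The KO sample-number contrast called 1 of the 29. It called 2 with median-of-ratios scaling and with a pseudocount of 0.1 (uc009mun.1 joined), 0 with a 5 TPM filter, with no filter, with a pseudocount of 5, with a replicate block and without KO replicate number 4, and 0 to 1 with 1 library left out. The genotype contrast called 0 to 1 with 1 library left out, and 0 otherwise. The drug difference between sample-number ranges called 0 of those of the 29 that were tested, which were 26 with the 5 TPM filter, in all settings run.

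The labels do not say that a replicate number marks a shared source. Correlations of same-numbered deviations were 0.0939 to 0.115 in WT and 0.0718 to 0.219 in KO, not all above 0.1, so the block was kept as an alternative. The own number correlated best in 5 of 7 pairs, all 3 of WT and KO pairs 3 and 4, which is a hint of pairing from the data and not the design. The fitted block correlation was 0.34 with 4 groups and 0.30 with 6. Without depth, the precision of single values is unknown.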
